A study of Mus musculus with 14 samples.

Results

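Tumours of mice that received cytotoxic T lymphocytes (CTLs) together with an antibody that blocks interferon gamma were compared here with untreated tumours of the same day. The members are the 6 of 14 arrays whose labels give one of these arms on days 3, 5 and 7 after transfer, 3 arrays an arm, paired by day. The tumours were B16F10, a transplantable melanoma line of C57BL/6 mice, grown in C57BL/6 hosts, and their RNA was hybridised to one-colour (Cy3) Agilent whole mouse genome arrays. The CTLs were activated in culture, carried the CD90.1 allele and recognised gp100, the melanocyte protein encoded by Pmel, and they were given 9 days after tumour challenge, which is day 0.

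In the blocked arm anti-interferon gamma was injected on days 0 and 2, and each array holds pooled RNA of 3 tumours. The untreated mice carried the same tumour and received neither CTLs nor antibody, and each of their arrays holds pooled RNA of 4 tumours. CTL transfer and antibody injection therefore cannot be told apart in this comparison alone. For reference, values are also given from mice that received CTLs with control rat IgG (3 arrays, 3 tumours each) or CTLs alone (3 arrays, 4 tumours each) on the same days. The antibody against the IgG arm is a comparison that does not use the untreated arrays. CTLs and IgG against untreated do use them, so they are set beside the blocked arm only as values. Each arm has 1 array a day and each day is 1 slide. An arm always had the same array position on its slide, and the effect of that position cannot be told apart from that of the arm. The p-values measure variation between days of pooled tumours and say nothing of the spread between mice.

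Interferon gamma is the main cytokine of activated CD8 T cells. Its receptor signals through JAK kinases and induces transcription factors such as IRF1, and these switch on chemokines, guanylate-binding GTPases and antigen presentation. The class II transactivator CIITA drives MHC class II genes, both in myeloid cells that already hold it and in cells that gain it after interferon gamma. CTLs also kill through perforin and granzymes and release other cytokines and chemokines, and these need no interferon gamma.

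Between 53.6% and 58.2% of the spots on the blocked arrays and between 55.8% and 59.7% on the untreated arrays were well above background, and no spot was saturated. Levels below are log2 processed signal minus the array's 75th percentile, and differences are log2 estimates from limma ± SE with n = 3 days. On the first principal component of 12 arrays, which held 49.8% of the variance, the blocked arrays lay at 29.3, 34.8 and 57.5 on days 3, 5 and 7. The untreated arrays lay at 61.0, 58.5 and 42.5, and the CTL and IgG arrays between -66.7 and -21.4. The untreated array of day 7 stood apart on the second component, at 48.3 with the other untreated and blocked arrays between -19.4 and 0.758, and counts are given without it below. The tumour identity of the samples was checked with 21 melanocyte genes. Their summed linear signal, relative to the 75th percentile, was 1563 to 2132 in untreated and 1748 to 2032 in blocked tumours. Pmel was at 8.69, 8.35 and 8.87 in untreated tumours on days 3, 5 and 7 and at 8.86, 8.71 and 8.60 in blocked tumours.

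The first question was what CTLs still changed when interferon gamma was blocked. Genes that rose included the T cell genes Cd3d and Cd8a (2 of 28 measured on their list), 4 of 10 MHC class II genes, the killer cell gene Nkg7 (1 of 20 cytotoxic genes) and C5ar1 (1 of 15 complement genes), while none of 23 macrophage genes passed. Of 29 genes classically induced by interferon gamma 1 rose, and their median difference was 0.55, with 1.62, 0.33 and -0.21 on days 3, 5 and 7. Of 17043 genes tested, 27 passed (limma, Benjamini-Hochberg adjusted p below 0.05), which is 0.158% of genes. Of these 26 were higher (0.153%) and 1 was lower (0.00587%), with a smallest adjusted p of 0.000695. At an unadjusted p below 0.05 there were 461 higher (2.7%) and 717 lower genes (4.21%), and the median difference of all genes was -0.03. All 27 kept 1 sign on the 3 days, and for all 27 the arms did not overlap, as for 896 genes with the blocked arm above (5.26%) and 1053 below (6.18%). In bulk tumour RNA, fewer cells of a type and less RNA per cell cannot be told apart, and this holds for every cell type gene below.

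The count rests on the day term, on pooling the spread over 12 arrays and on single arrays. It was 0 without the day term, 0 with only the 6 arrays of these arms and 0 with all 14 arrays. It was 9, 4 and 57 without the untreated array of day 3, 5 and 7, and 3, 6 and 29 without the blocked array of day 3, 5 and 7. Only AK005018, Cd8a and H2-Ab1 passed without any single one of these 6 arrays, at adjusted p values up to 0.0106, 0.0364 and 0.0106 (limma). The other 24 lost their call without at least 1 array, with their sign unchanged. With normexp background and quantile normalization, AK005018 (0.85, adjusted p = 0.225) and Cd8a (1.31, adjusted p = 0.149) lost their calls too. Cd8a also lost it with the mean of all probes of a gene (2.40, adjusted p = 0.0766). H2-Ab1 kept its call in both settings (adjusted p = 0.000561 and 0.00557).

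**Figure D1:**
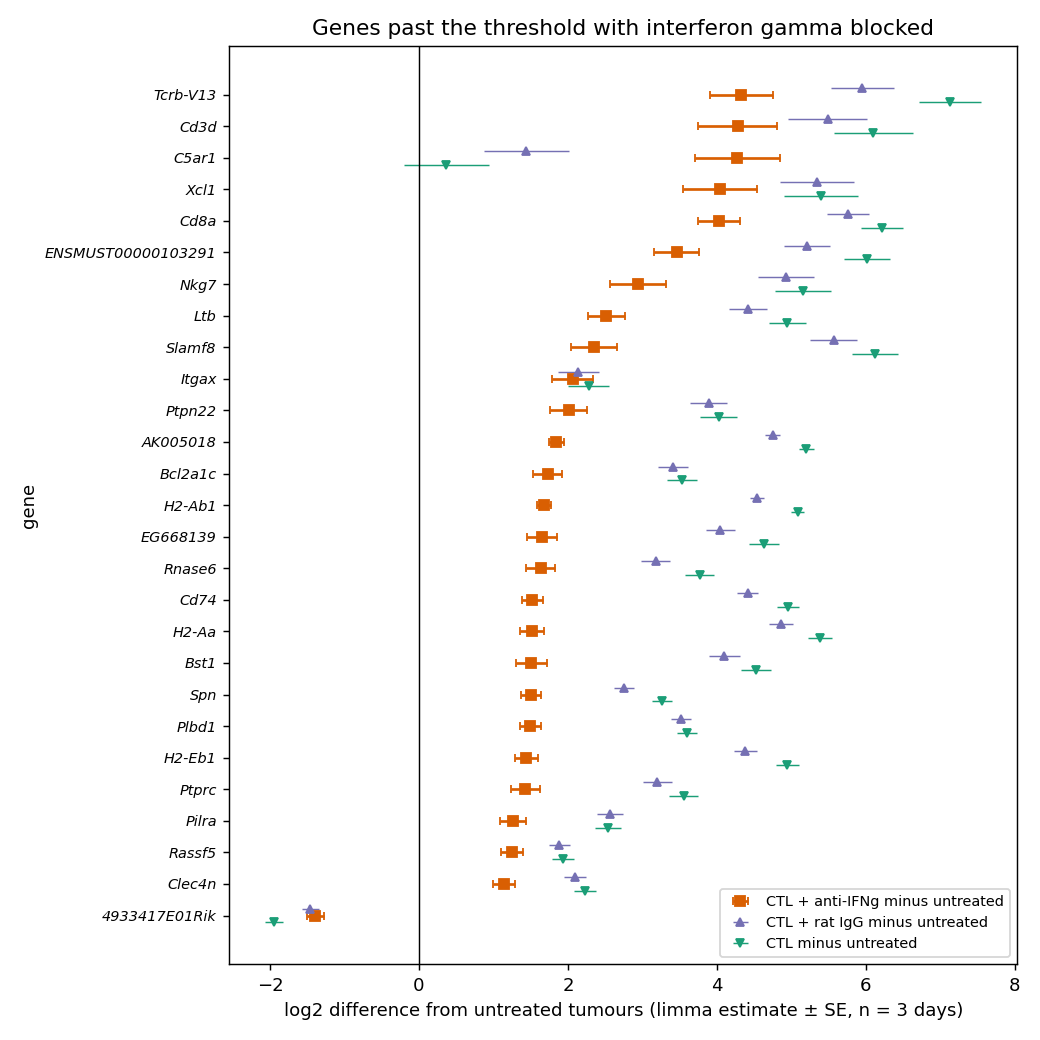
Log2 difference from untreated tumours (horizontal axis, limma estimate with SE bars, n = 3 days) of the 27 genes past the threshold with interferon gamma blocked (squares), beside the IgG arm (upward triangles) and CTLs alone (downward triangles), which share the untreated arrays. The squares run from 1.14 (Clec4n) to 4.33 (Tcrb-V13) for the higher genes, and 25 of 26 lie left of the CTL value, C5ar1 being the exception.

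Among T cell genes, Cd8a encodes the CD8 alpha chain, the coreceptor of cytotoxic T cells, and was probed at chr6:71306845-71306904 (mm8). Its level was -6.51, -5.49 and -6.47 in untreated tumours on days 3, 5 and 7 and -1.73, -1.35 and -3.31 in blocked tumours. Every blocked array lay far above every untreated one, the day 7 array least so. No untreated array was well above background, so the rise was at least 4.81-fold (measured log2 difference 4.03 ± 0.28, adjusted p = 0.00286). A pair of other Cd8a probes gave 1.61 and 1.56. Cd3d, a subunit of the CD3 complex that passes on the T cell receptor signal, was at -6.26, -4.68 and -4.10 in untreated and -1.05, -0.17 and -0.99 in blocked tumours (chr9:44737083-44737314, mm8). The arms did not overlap, and the day differences were 5.21, 4.52 and 3.12. As 1 of 3 untreated arrays was well above background, these differences are measured in part against signal not above background. Cd3d rose by 4.28 ± 0.53 (limma, adjusted p = 0.0362), and of the 6 single arrays left out it kept its call without 1, the untreated array of day 7 (5.05, adjusted p = 0.00271). Without the others it had 3.66 to 4.29 (adjusted p = 0.0835 to 0.214).

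Segments of the T cell receptor beta chain rose too. Tcrb-V13, named so in the array file (chr6:41477864-41477923, mm8), rose by 4.33 ± 0.42 (limma, adjusted p = 0.0121), from -3.30, -2.58 and -2.75 to 1.66, 2.45 and 0.25, and its other 3 probes gave 3.72 to 4.19. The transcript ENSMUST00000103291, which the array file describes as a beta chain constant segment, rose by 3.46 ± 0.31 (adjusted p = 0.00894). These probes lie in 1 locus and can share transcripts. Of the 28 measured genes on the T cell list 2 rose and none fell over all genes tested, Cd3d and Cd8a, and 9 were above the untreated arm without overlap (5.26% of all genes). Other chains of the same receptors did not pass. Cd3e, a further CD3 subunit, had -0.31, -0.07 and -0.67 on days 3, 5 and 7 (-0.35 ± 0.14, limma, adjusted p = 0.667), and Cd8b1, the CD8 beta chain, had -0.20, -0.06 and -0.16 (-0.14 ± 0.09, adjusted p = 0.863). With CTLs alone and with IgG, Cd3e had 0.54 and 0.23 against untreated, beside 6.1 and 5.49 for Cd3d. Cd8b1 had -0.85 and -0.99 there, beside 6.22 and 5.75 for Cd8a. Without the block too, the Cd3e and Cd8b1 values thus lay far below those of their partner chains. Blocked against IgG, Cd3e had -0.58 (limma, adjusted p = 0.0319) beside -1.20 for Cd3d (adjusted p = 0.173). Cd8b1 had 0.85 (adjusted p = 0.0019) beside -1.73 for Cd8a (adjusted p = 0.00791). Why these probes differ from those of their partner chains was not tested. Cd3g had a measured difference of 1.81 ± 0.44 with no untreated array well above background (adjusted p = 0.339), and Cd4, the coreceptor of helper T cells, had -0.23 ± 0.21 (adjusted p = 0.953). The list median was 0.48, or 0.12 with dim genes at their bound, against -0.03 for all genes. It ran from 0.28 without the untreated array of day 5 to 0.79 without that of day 7 and was 0.18 with normexp background and quantile normalization. The summed linear signal was 7.50 to 8.66 in untreated and 9.11 to 12.8 in blocked tumours. Il2rb, a receptor chain for interleukins 2 and 15, had 2.16 ± 0.38 (adjusted p = 0.129), and the kinase Zap70 was at least 3.11-fold higher without passing (adjusted p = 0.129). Thy1, which encodes CD90, had -0.12 ± 0.37 (adjusted p = 0.999).

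Among cytotoxic genes, Nkg7, a granule protein of killer lymphocytes, rose by 2.94 ± 0.37 (limma, adjusted p = 0.0391), from -3.92, -3.31 and -3.29 to -0.14, 0.16 and -1.72. The blocked arrays lay above all untreated ones, and a further Nkg7 probe gave 3.97. Xcl1, a chemokine that activated CD8 T cells secrete to draw cross-presenting dendritic cells, was at -6.71, -6.56 and -6.53 in untreated tumours, on no array well above background, and at -1.83, -1.66 and -4.16 in blocked tumours. It was at least 3.59-fold higher (measured difference 4.04 ± 0.50, adjusted p = 0.0362). Ltb, a lymphotoxin subunit of the TNF family, rose by 2.51 ± 0.25 (adjusted p = 0.0134). Nkg7 is 1 of 20 measured cytotoxic genes, of which it alone passed over all genes tested. The list median was 1.22, or 0.60 with dim genes at their bound. It was 0.92 and 1.87 without the blocked array of day 3 and day 7, and 0.40 with normexp background and quantile normalization. Of the list 10 of 20 had an unadjusted p below 0.05, all higher, against 2.7% of all genes. Xcl1 was the 1 chemokine of 26 that passed, with a list median of 0.58. Of 8 inhibitory receptor and ligand genes and 3 regulatory T cell genes none passed, with medians of 0.25 and 0.42.

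Among the effector molecules, Ifng, Gzmb and Prf1 had large differences that did not pass. On the same list Gzmd, Gzmm, Tnfsf10 and Fasl had -0.14, -0.37, 0.10 and 0.40, and 18 of 20 genes were above 0. Ifng, the blocked cytokine, was at -4.96, -4.32 and -6.05 in untreated tumours and at 0.23, -1.58 and -3.24 in blocked tumours. The arms did not overlap, the level in the blocked arm was lower on each later day, and the difference was 3.58 ± 0.56 (limma, adjusted p = 0.0901). Gzmb, encoding granzyme B, had 5.52 on day 3, 2.69 on day 5 and 1.49 on day 7 (3.23 ± 0.77, adjusted p = 0.333). Prf1, encoding perforin, was at least 1.59-fold higher with a measured difference of 2.34 ± 0.39 (adjusted p = 0.118). Against the IgG arm, Ifng had -1.79 (limma, adjusted p = 0.0746), Gzmb -2.60 (adjusted p = 0.0627) and Prf1 -1.99 (adjusted p = 0.0159). Of these 3 genes only Prf1 passed as lower with the block. Across the cytotoxic list the block left 14 of 20 members below IgG past the threshold and none above (median -2.19). For the T cell list this was 15 of 28 below, with 2 above (median -1.31). Among all genes 5.94% lay below IgG in this way and 6.61% above. Tnf had 0.04 ± 0.46 against untreated (adjusted p = 0.999) and was not well above background on any blocked array. The median of the cytotoxic list went from 2.42 on day 3 to 1.13 on day 5 and 0.02 on day 7.

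**Figure D2:**
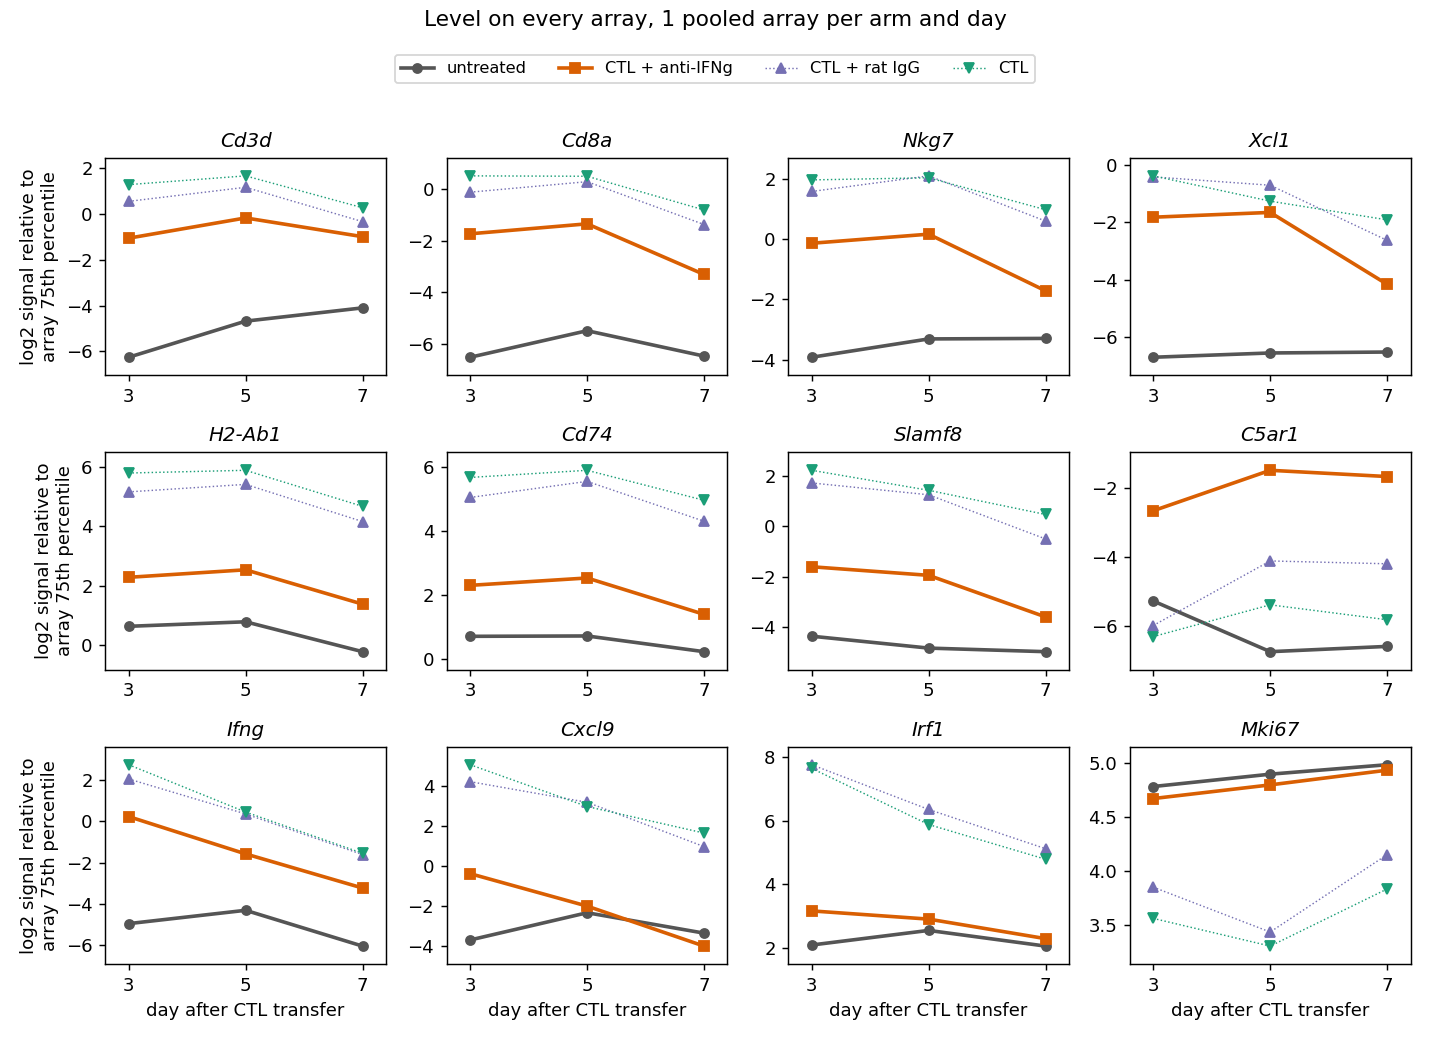
Log2 signal relative to the array's 75th percentile (vertical axis, scale differing between panels) of 12 genes against the day after transfer, 1 pooled array per point, with untreated (circles) and blocked (squares) tumours as thick lines and the IgG and CTL arms as dotted lines. Blocked values of Cd3d, Cd8a, Nkg7, Xcl1, H2-Ab1, Cd74 and Slamf8 lie between untreated and the other CTL arms, C5ar1 lies above all on the 3 days, and Mki67 lies within 0.11 of untreated.

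MHC class II genes rose. H2-Ab1, the beta chain of the I-A molecule that presents peptides to CD4 T cells, was at 0.62, 0.77 and -0.24 in untreated tumours and at 2.28, 2.53 and 1.37 in blocked tumours (chr17:33877309-33877368, mm8). The lowest blocked array lay above the highest untreated one, and the differences of 1.66, 1.76 and 1.61 lay close together on the 3 days. H2-Ab1 rose by 1.68 ± 0.09 (limma, adjusted p = 0.000695), and its 4 probes gave 1.45 to 1.74. Its partner H2-Aa rose by 1.51 ± 0.16 (adjusted p = 0.0192), H2-Eb1, the beta chain of I-E, by 1.44 ± 0.15 (adjusted p = 0.0192), and Cd74, the invariant chain that guards the groove, by 1.52 ± 0.14 (adjusted p = 0.0107). AK005018, which the array file describes as a class II antigen cDNA and which may share transcripts with these genes, rose by 1.85 ± 0.10 (adjusted p = 0.000695).

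Of 10 measured class II genes 4 rose (0.153% of all genes) and none fell over all genes tested. Of the 10, 9 had an unadjusted p below 0.05 and a positive difference (2.7% of all genes), and 7 lay above without overlap (5.26%). The list median was 1.44, with 1.69, 1.40 and 1.25 on days 3, 5 and 7, and the summed signal was 6.20 to 9.46 in untreated and 15.2 to 31.0 in blocked tumours. Ciita, the transactivator, had 1.30 ± 0.49 without passing (adjusted p = 0.642), the peptide exchange genes H2-DMa, H2-DMb1 and H2-DMb2 had 1.29, 1.33 and 1.45, and Ctss, the protease that trims the invariant chain, 1.56 ± 0.27 (adjusted p = 0.122). The exception was H2-Oa, with -0.15 ± 0.74 and a day 5 value of -2.65. Beside these, class II genes had a median of 5.02 with CTLs alone and 4.47 with CTLs and IgG, and 9 of 10 were lower in the blocked than in the IgG arm (limma, adjusted p below 0.05, 5.94% of all genes). In all 2139 genes differed between these arms, 50 to 1532 when 1 array or day was left out and 2 with all 14 arrays. H2-Ab1 was lower than in the IgG arm by a log2 difference of -2.86 ± 0.09 (adjusted p = 1.58e-05).

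Promoters are shown for class II genes that rose and for a pair of interferon gamma genes that did not, to set their letters beside their values. Sequences are the 250 bases before the RefSeq start (GRCm38.p6), 5′ to 3′ on the gene's strand. They lie at chr17:34287824-34288073 (minus strand, H2-Aa), chr17:34305617-34305866 (plus strand, H2-Eb1), chr11:53769764-53770013 (plus strand, Irf1) and chr3:142620413-142620662 (plus strand, Gbp2). Capitals mark the Y box CTGATTGG in the class II genes, the gamma-activated sequence (GAS) letters TTCNNNGAA in Irf1 and the core of an interferon-stimulated response element, GAAANNGAA, which reads on the opposite strand in Gbp2.
H2-Aa: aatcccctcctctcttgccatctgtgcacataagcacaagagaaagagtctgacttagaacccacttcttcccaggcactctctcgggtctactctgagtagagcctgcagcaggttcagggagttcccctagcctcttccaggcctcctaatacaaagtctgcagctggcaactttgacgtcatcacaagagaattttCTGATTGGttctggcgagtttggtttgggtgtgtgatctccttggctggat
H2-Eb1: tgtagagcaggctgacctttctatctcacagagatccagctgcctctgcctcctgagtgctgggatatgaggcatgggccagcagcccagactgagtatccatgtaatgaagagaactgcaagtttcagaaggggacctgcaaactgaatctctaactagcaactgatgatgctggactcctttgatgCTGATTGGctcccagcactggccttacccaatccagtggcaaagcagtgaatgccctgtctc
Irf1: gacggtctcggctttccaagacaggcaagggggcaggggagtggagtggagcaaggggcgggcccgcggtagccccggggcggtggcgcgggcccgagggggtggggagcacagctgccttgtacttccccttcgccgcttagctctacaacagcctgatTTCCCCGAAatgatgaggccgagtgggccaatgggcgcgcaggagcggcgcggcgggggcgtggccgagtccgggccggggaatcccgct
Gbp2: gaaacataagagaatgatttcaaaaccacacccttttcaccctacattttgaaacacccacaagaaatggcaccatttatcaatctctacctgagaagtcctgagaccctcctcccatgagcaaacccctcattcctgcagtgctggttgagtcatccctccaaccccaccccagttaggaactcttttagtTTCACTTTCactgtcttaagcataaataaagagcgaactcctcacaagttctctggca

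The Y box is part of the promoter module that class II genes share. It starts 51 bases before the start of H2-Aa and 62 before that of H2-Eb1. Of 17043 genes 10600 had a promoter in the table, searched on both strands over 250 bases before to 50 after the start. The Y box was in 3 of 7 class II promoters, H2-Oa being the third, in 2 of the 18 available promoters of genes called higher (11.1%) and in 5.54% of all. The GAS letters were in 3 of these 18 promoters (16.7%; Nkg7, Cd3d and Ltb) against 7.11% of all, and the response element core in 4 (22.2%; Slamf8, Pilra, C5ar1 and Rnase6) against 7.22%. The NF-kappa B consensus was in 3 (16.7%; Slamf8, H2-Aa and Ltb) against 5.07%. Of 18 available promoters of the genes classically induced by interferon gamma, 44.4% held the GAS letters and 72.2% the response element core. Of 17 promoters of antiviral genes induced by type I interferon, 29.4% and 64.7% did. These shares describe letters in a window over few promoters.

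The genes classically induced by interferon gamma lay far below their level in the other CTL arms. Of 29 measured members 1 rose (0.153% of all genes) and none fell over all genes tested, against 26 higher with CTLs alone (10.1% of all genes). In the blocked arm 27 of 29 were lower than in the IgG arm (5.94% of all genes). The list median was 0.55 with the block, 5.45 with CTLs alone and 5.32 with IgG. The blocked median was -0.22, 0.95 and 1.03 without the untreated array of day 3, 5 and 7. Without the blocked array of these days it was 0.57, 0.47 and 0.56. Leaving out day 3 altogether gave 0.00352, and all 14 arrays gave 0.06. The median was 1.62 on day 3, with 26 of 29 genes above 0, then 0.33 on day 5 and -0.21 on day 7, with 19 and 11 genes above 0.

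The member that rose was Slamf8, a receptor of the SLAM family on myeloid cells (chr1:174418611-174418670, mm8). It was at -4.38, -4.85 and -4.99 in untreated tumours and -1.61, -1.95 and -3.61 in blocked tumours. The arms did not overlap, and the untreated probe was not well above background, which gave at least 3.98-fold (measured 2.35 ± 0.31, limma, adjusted p = 0.0468). Cxcl9, the chemokine that attracts activated T cells, was at -3.71, -2.35 and -3.37 in untreated and -0.40, -2.02 and -4.02 in blocked tumours. It was high on day 3 only, and the arms overlapped (1.00 ± 0.72, adjusted p = 0.891). Irg1, the enzyme that makes itaconate, had 4.46, 1.77 and -0.60 on days 3, 5 and 7. Ubd, a ubiquitin-like modifier, was well above background on no untreated and 2 blocked arrays and was at least 1.16-fold higher without passing (adjusted p = 0.587). The factor Irf1 had 0.55 ± 0.51 (adjusted p = 0.956) and Gbp2, a guanylate-binding GTPase, 0.38 ± 0.74 (adjusted p = 0.999). Cxcl10, a further T cell attractant, had -0.44 ± 0.80 (adjusted p = 0.999).

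**Figure D3:**
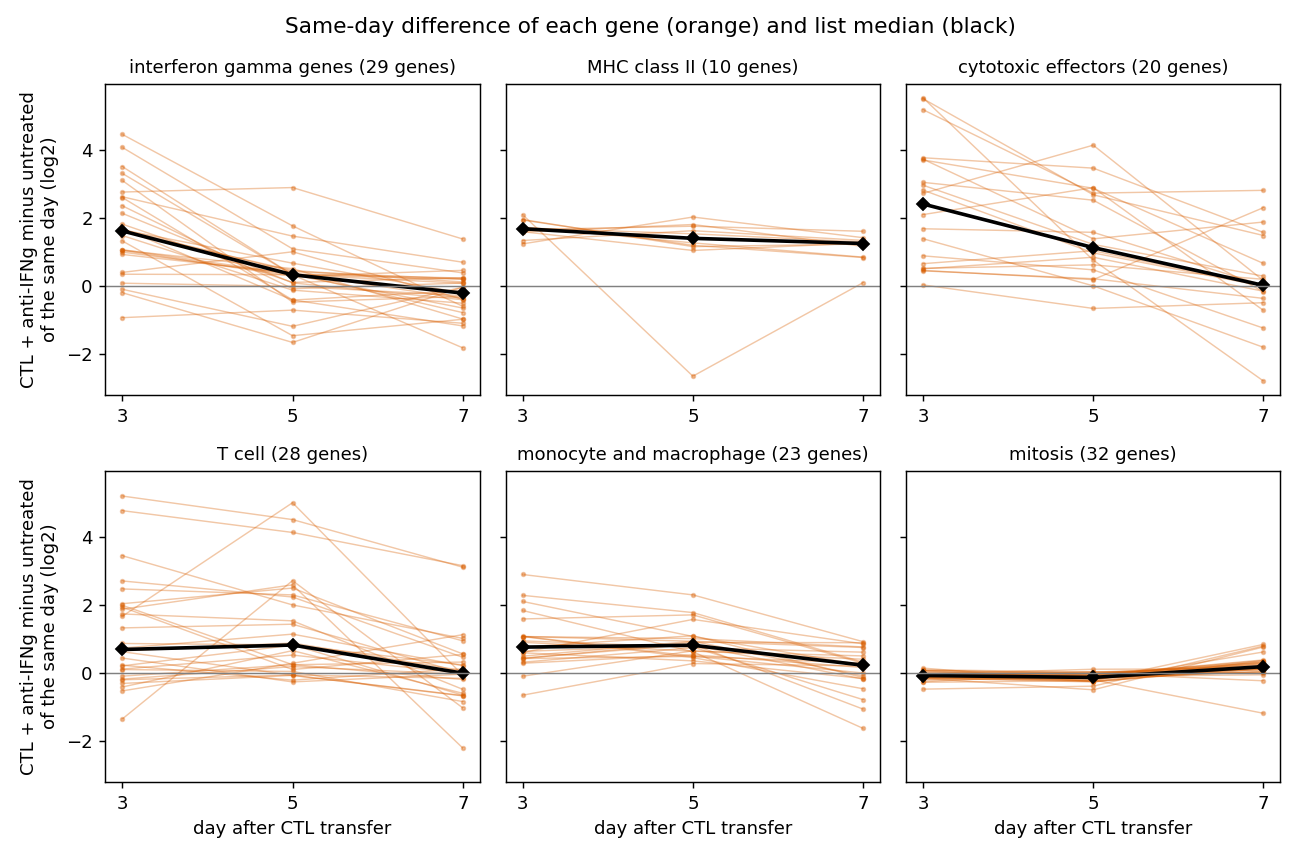
Difference between blocked and untreated tumours of the same day (vertical axis, log2) for every measured gene of 6 lists (orange lines) and their median (black), against the day after transfer. The median of the 29 interferon gamma genes ran from 1.62 to -0.21 and that of the 20 cytotoxic genes from 2.42 to 0.02, while the 10 class II genes stayed between 1.69 and 1.25.

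Receptor and signalling genes of the pathway lay near untreated levels. None of 14 passed against untreated (limma), 1 had an unadjusted p below 0.05, and the median was 0.07, against 1.07 with CTLs alone. Ifngr1, the ligand-binding receptor chain, had -0.18 ± 0.12 (adjusted p = 0.862). Of 25 type I interferon genes none passed in either direction and none had an unadjusted p below 0.05. Of these 25, 23 were above 0, beside 7303 of all 17043 genes, and the median was 0.40, beside 3.20 with CTLs alone. By day the median was 0.62, 0.65 and -0.23 on days 3, 5 and 7, with 23, 24 and 10 genes above 0. Without single arrays of either arm the median over the days ran from -0.03 (untreated, day 3) to 0.83 (untreated, day 7). Of 21 class I antigen presentation genes none passed, and 9 had an unadjusted p below 0.05, all higher (2.7% of all genes). Their median was 0.48, with 0.17 without the untreated array of day 3 and 0.63 without that of day 7. H2-K1, a classical class I heavy chain, had 0.55 ± 0.13 (adjusted p = 0.311) and B2m, the light chain, 0.48 ± 0.17 (adjusted p = 0.601). Class I probes of near-identical genes can take up each other's transcripts. Cd274, which encodes PD-L1, had -0.18 ± 0.50 against untreated (adjusted p = 0.999) and -2.77 against the IgG arm (adjusted p = 0.0117).

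The other genes that rose were of mixed kinds. C5ar1, the receptor for the complement fragment C5a on neutrophils and macrophages, was at -5.29, -6.76 and -6.61 in untreated tumours and -2.67, -1.49 and -1.67 in blocked tumours (chr7:15407044-15407103, mm8). No untreated array was well above background, all 3 blocked arrays were, and the arms lay far apart. C5ar1 was at least 5.47-fold higher (measured 4.27 ± 0.57, limma, adjusted p = 0.0485), and of the 6 single arrays left out it kept its call without 1, the untreated array of day 3 (5.14, adjusted p = 0.00393). Without the others it had 3.75 to 4.51 (adjusted p = 0.0927 to 0.282). C5ar1 had 1 probe, whose match to the gene was not checked here. It lost its call with no filter on dim probes (adjusted p = 0.11), did not pass the filter of 6 arrays, and had 1.17 with normexp background and quantile normalization (adjusted p = 0.028). It could pass the filter of 3 arrays through the blocked arm alone. The IgG and CTL arms had 1.44 and 0.37 against the same untreated arrays. Set against IgG alone, C5ar1 was higher with the block by 2.83 ± 0.57 (adjusted p = 0.0173), where 6.61% of all genes were higher. It was the 1 gene of the 26 that was higher than in the IgG arm, where 22 were lower (5.94% of all genes).

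Itgax, encoding CD11c of dendritic cells and macrophages, rose by 2.07 ± 0.27 (limma, adjusted p = 0.0468) and had -0.07 against IgG (adjusted p = 0.878), although its other probe gave 0.16 against untreated. Ptprc, encoding the pan-leukocyte phosphatase CD45, rose by 1.43 ± 0.20 (adjusted p = 0.0489; other probe 0.54), and Spn, encoding the leukocyte sialoglycoprotein CD43, by 1.51 ± 0.13 (adjusted p = 0.00894; other probe 0.93). Plbd1, a phospholipase-like protein, rose by 1.5 and Clec4n, encoding the fungal pattern receptor dectin-2, by 1.14. Ptpn22, a phosphatase that restrains T cell receptor signals, was at least 1.56-fold higher, Bst1, an ectoenzyme related to CD38, at least 1.92-fold, the inhibitory receptor gene Pilra at least 1.83-fold, and Rassf5, a regulator of integrin adhesion, at least 1.5-fold. Bcl2a1c, a survival gene of the BCL2 family with near-identical copies that the probe may not separate, rose by 1.73 ± 0.20 (adjusted p = 0.026). Rnase6 and EG668139 passed with 1.63 and 1.65 but were not well above background in either arm, so no fold is given.

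Of 23 macrophage genes none passed over all genes tested, 22 were above 0, 11 had an unadjusted p below 0.05, all higher (2.7% of all genes), and 10 did not overlap (5.26%). The list median was 0.56 (0.76, 0.82 and 0.23 on days 3, 5 and 7), with 0.36 without the blocked array of day 3, and 21 of 23 were lower than in the IgG arm (5.94% of all genes). The summed signal of these genes was 29.4 to 32.3 in untreated and 46.5 to 79.6 in blocked tumours, ranges that did not overlap. Clec7a, encoding the beta-glucan receptor dectin-1, had 2.90, 2.30 and 0.92 (2.04 ± 0.33, limma, adjusted p = 0.104), and Lyz2, encoding lysozyme, 1.01 ± 0.20 (adjusted p = 0.191). Ccl17, a chemokine of dendritic cells and macrophages, had 2.19 ± 0.40 against untreated (adjusted p = 0.144), beside 0.69 with CTLs alone and 0.92 with IgG, and 1.27 against IgG (adjusted p = 0.0759). Arg1, encoding arginase 1, had 3.27, 0.82 and -0.41. On the neutrophil list none of 5 measured genes passed, and none of 7 B cell and 4 natural killer genes did, with medians of 0.03, -0.42 and -0.24. Their summed signal in untreated and blocked tumours was 0.29 to 1.02 and 0.299 to 0.687 for neutrophil, 0.92 to 1.44 and 1.07 to 1.76 for B cell, and 0.0526 to 0.162 and 0.0534 to 0.0813 for natural killer genes. Itgax was the 1 of 10 dendritic cell genes that passed (list median -0.01, summed signal 7.30 to 7.73 and 7.70 to 8.21), and C5ar1 the 1 of 15 complement genes (median 0.36). The part of these cells in the C5ar1 and class II values was not tested.

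**Figure D4:**
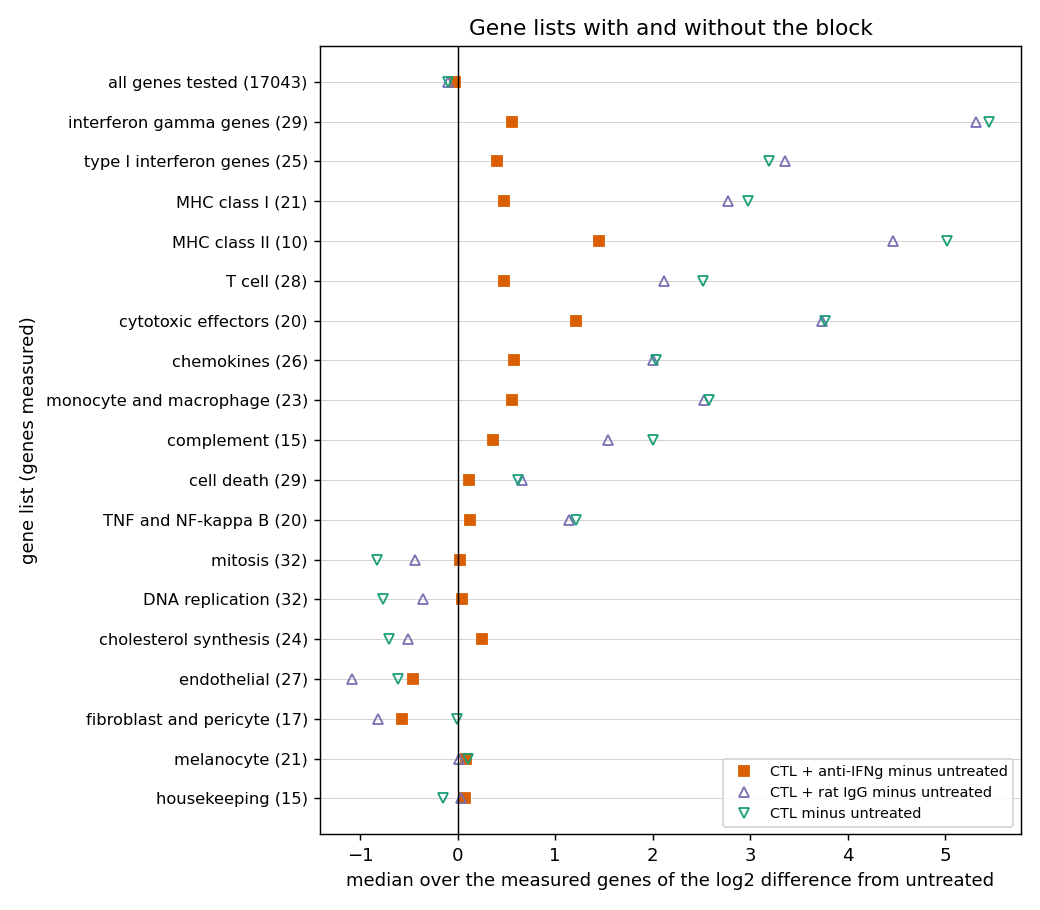
Median log2 difference from untreated tumours (horizontal axis) over the measured genes of 18 lists and of all genes, for blocked tumours (filled squares), IgG (upward triangles) and CTLs alone (downward triangles), with the number of genes in parentheses. The squares stay within 0.6 of 0 except for class II (1.44) and cytotoxic genes (1.22), and cholesterol synthesis genes lie on the opposite side of 0 from both other CTL arms.

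Proliferation genes of blocked tumours were close to untreated tumours on average over the days. None of 32 mitosis genes passed or had an unadjusted p below 0.05. Their median of 0.02 ran from -0.18 to 0.15 when single arrays were left out. With CTLs alone 30 of 32 were lower (21.4% of all genes) with a median of -0.83. With IgG 8 of 32 were lower, as were 1902 of all 17043 genes, with a mitosis median of -0.44. Mki67, the Ki-67 antigen, was at 4.78, 4.90 and 4.98 in untreated and 4.67, 4.80 and 4.93 in blocked tumours. The arms overlapped and the difference was -0.09 ± 0.14 (limma, adjusted p = 0.999), against 0.99 when blocked was set against IgG (adjusted p = 0.00501). Of 32 mitosis genes 5 were higher with the block than with IgG, against 6.61% of all genes. Replication genes had a median of 0.04 with none of 32 passing. By day the mitosis median was -0.07, -0.13 and 0.19 on days 3, 5 and 7, with 7, 4 and 28 of 32 genes above 0. The replication median was -0.10, -0.12 and 0.26, with 12, 5 and 28 above 0. Day 7 is the day of the untreated array that stood apart. None passed among 29 cell death, 20 TNF and NF-kappa B, 19 p53, 23 hypoxia and glycolysis or 15 stress genes, with medians of 0.12, 0.13, -0.06, -0.10 and -0.23. All 24 cholesterol and fatty acid synthesis genes were above 0, none passed, and the median was 0.25 (0.04, 0.37 and 0.24 by day), beside -0.70 with CTLs alone and -0.51 with IgG. Of these 24, 21 were higher with the block than with IgG (6.61% of all genes). Hmgcs1, an early enzyme of that pathway, had 0.31 ± 0.11 against untreated (adjusted p = 0.635) and 0.55 against IgG (adjusted p = 0.0198).

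Genes of vessels and stroma lay below untreated tumours without passing. Of 27 endothelial genes none passed, 8 had an unadjusted p below 0.05 in the lower direction (4.21% of all genes), 10 did not overlap (6.18% of all genes), and the median was -0.46. By day the median was -0.31, -0.03 and -0.85, with 12 of 27 genes above 0 on day 5, and it was -0.33 without the untreated array of day 7 and -0.20 with normexp background and quantile normalization. Emcn, an endothelial sialomucin, had -0.74 ± 0.17 (limma, adjusted p = 0.31), and Kdr, encoding VEGF receptor 2, -0.66 ± 0.24 (adjusted p = 0.625). The endothelial median was -1.08 with IgG and -0.62 with CTLs alone, and 11 of 27 genes were higher with the block than with IgG (6.61% of all genes). Of 17 fibroblast and pericyte genes 16 were below 0 and 8 had an unadjusted p below 0.05, all lower (4.21% of all genes). Their median was -0.57 (-0.40 without the untreated array of day 7) beside -0.00183 with CTLs alone and -0.82 with IgG. Col1a1, a collagen I chain, was at 0.13, 0.20 and 1.15 in untreated and -0.78, -1.0 and -0.43 in blocked tumours, arms that did not overlap (-1.23 ± 0.32, adjusted p = 0.41). Cxcl12, a stromal chemokine, had -1.78 ± 0.30 (adjusted p = 0.118), and Mgp, matrix Gla protein, -1.20 ± 0.20 (adjusted p = 0.104). Adgrf5, an adhesion receptor of endothelial and epithelial cells, was at least 2.09-fold lower without passing (measured -2.81 ± 0.56, adjusted p = 0.189), as no blocked array was well above background. Platelet genes had a median of -1.32 (4 genes, summed signal 2.85 to 3.86 in untreated and 2.02 to 2.40 in blocked tumours). Erythroid genes had -0.95 (6 genes, summed signal 106 to 1098 and 66.6 to 513), with 0.38, -2.52 and -1.0 on days 3, 5 and 7. Averaged over the days, genes of neighbouring tissue were also mostly below 0, as were 9740 of all 17043 genes. This held for 6 of 7 keratinocyte (median -0.36), 11 of 12 muscle (-0.36) and 6 of 8 adipocyte genes (-0.38). Muscle genes changed sign by day, with medians of -0.899, 1.045 and -1.065 on days 3, 5 and 7. On these days 1, 11 and 1 of the 12 were above 0. The part of blood and of neighbouring tissue in the vessel and stroma values was not tested.

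The gene that fell was 4933417E01Rik, for which no function is given here (chr7:18654944-18655003, mm8). It was at -2.49, -2.02 and -1.87 in untreated and -3.80, -3.39 and -3.36 in blocked tumours. The arms did not overlap, and it fell by 1.39 ± 0.12 (limma, adjusted p = 0.00894). It had -1.46 with IgG and -1.95 with CTLs alone, and 0.07 against IgG (adjusted p = 0.73). The most negative difference of all genes was that of Dppa3, a germ cell gene. It was at -4.18, 0.06 and -3.78 in untreated and -6.18, -6.61 and -6.85 in blocked tumours, at least 3.24-fold lower without passing (measured -3.91 ± 0.75, adjusted p = 0.174). The untreated array of day 5 stood well above the others.

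Because antibody was given on days 0 and 2 only, the difference was also tested for a slope over the days. No gene passed (limma, smallest adjusted p = 0.102), and at an unadjusted p below 0.05 there were 286 rising (1.68%) and 1226 declining slopes (7.19%). Of the 26 higher genes 22 had their smallest difference on day 7, the day of the untreated array that stood apart. The share of all genes with this order of days was not counted, so the 22 are given as a value only. Of 29 interferon gamma genes 12 had a declining slope at an unadjusted p below 0.05 and none a rising one, and of 20 cytotoxic genes 10 and none. The smallest unadjusted p values among declining slopes were those of Ctsw, encoding the lymphocyte protease cathepsin W, with 5.54, 0.76 and -2.80 on days 3, 5 and 7, and of Cd70, a TNF family ligand, with 2.44, 0.19 and -2.04, although 1 array of each arm measured Cd70 well above background. Ctsw was at -6.71, -3.31 and -1.67 in untreated tumours, on 2 arrays well above background, and at -1.17, -2.55 and -4.47 in blocked tumours. Among rising slopes, Ccl8, a monocyte chemokine, had 0.18, 1.08 and 2.42. The count of 1512 slopes at an unadjusted p below 0.05 was 2788, 2051 and 697 without the untreated array of day 3, 5 and 7, and 569, 1085 and 570 without the blocked array of day 3, 5 and 7.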

How the data were processed

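RNA of pooled tumours was hybridised to one-colour Agilent arrays. The submitters' processing notes name Agilent Feature Extraction 9.5. The scanner files deposited by the authors give linear spot intensity, with a background-subtracted processed signal per the file headers. Log2 values deposited by the authors equal the log2 processed signal minus 1 constant per array (r = 1), with column medians from -3.54 to -3.14. Scale and direction are thus known.

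Here each array's 75th percentile over 43379 non-control spots was subtracted from the log2 processed signal. Probes well above background on at least 3 of 14 arrays were kept, and the probe with the highest mean stood for a gene. Of 41174 probes, 24375 were named by accession through the RefSeq table (GRCm38.p6) and 16799 kept the file's name. Outlier spots were dropped, and 29 probes with a missing value on an array were not tested. Probe coordinates come from the files (mm8), and exons were not used here.

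Arms were compared with limma 3.58.1 (R 4.3.3, lmFit and eBayes) over 12 arrays with arm and day as terms, two-sided, with Benjamini-Hochberg adjustment over all genes. The labels give the day, which equals the slide and pairs the arrays. Deviations of same-day blocked and untreated arrays from their arm means correlated across genes at -0.0445, 0.187 and -0.0221 on days 3, 5 and 7. Slopes were fitted per 2 days. Where no array of an arm had a probe well above background, the fold is a bound, made from the bright arm's mean and, for each dim array, either that array's lowest signal well above background or the dim probe's own signal, whichever was larger. The number of arrays limits the precision. The fits were also run on simulated arrays with independent noise around gene and day means. Such arrays hold no fading of an arm over the days and no effect of array position, so they do not test for these.

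The members, gene lists and naming rule were chosen with earlier results of these data known. The rule named the 12 highest and 12 lowest genes that passed with an ordinary symbol, 1 sign on the 3 days and a measured arm, filled by smallest p, up to 4 genes of smallest p per list, a list of key genes and 5 slopes per direction. AK005018, ENSMUST00000103291, EG668139 and other genes past the threshold, H2-DMa, H2-DMb1, H2-DMb2, H2-Oa, Ctss, Gbp2, Cd3e, Cd3g, Cd8b1, Cd4 and the Y box were chosen after their values were seen. So were Gzmd, Gzmm, Tnfsf10 and Fasl. Alternatives used other values, scalings, filters, probes, arrays and terms.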

Additional observations from a re-analysis of the deposited data

How the results depend on the processing

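The count of 27 genes between blocked and untreated tumours was 26 with the authors' values, 36 with quantile normalization, 34 with the stricter filter of 6 arrays, 21 with the mean of all probes and 38 with an intensity trend. It was 9 with normexp background and quantile normalization, 54 with array median scaling and 10 without a filter, which tested 28465 genes. It was 0 in 3 settings, which were no replicate block (no day term), all 14 arrays and a fit to 6 arrays alone, with 880, 933 and 961 genes at an unadjusted p below 0.05 (limma). Leaving out 1 array or 1 day gave 1 to 57. The cause was not tested. Every one of the 27 kept its sign under the alternatives in which it was measured, and each kept its call in 4 to 15 of up to 20. Against IgG, 2139 genes became 1144 without a filter and 2 with all 14 arrays, and 50 to 1532 when 1 array or day was left out, the IgG arrays having been added after the data were seen. The 2139 were 1126 higher and 1013 lower, against 450 and 694 without a filter. No replicate block left 1726. The slope count of 0 was 1 with the stricter filter and 4 with an intensity trend, and 0 without any 1 array. The slope could not be fitted without a day, which leaves no residual degrees of freedom. Array median scaling moved the median of all genes from -0.03 to 0.07 against untreated, from 0.06 to 0.16 against IgG and from -0.01 to 0.20 for the slope. With all 14 arrays the medians of class II, cytotoxic and macrophage genes were 0.87, 0.84 and 0.21. Dim probes limit the T cell, cytotoxic and chemokine values, many of which are bounds.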
